A study of Mus musculus with 7 samples.

Results

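A set of 159 fibro-adipogenic progenitors with high counts of Pi16 and of 3 genes that go with it was described within single-cell RNA libraries of mouse hindlimb muscle. The 159 cells, called Pi16 cells here, were 61 of 1969 cells in the library total muscle 1 and 98 of 2424 cells in total muscle 2, out of 15267 cells that passed the filters in all 7 libraries of the series. They were chosen by measured values. A cell had to hold at least 200 genes and at most 10% mitochondrial UMIs (unique molecular identifiers, the counted molecules), at least 1 UMI of Pdgfra and 5 of Dcn, and no UMI of Pecam1, Ptprc or Tnmd, which mark endothelial, immune and tendon cells. This left 622 gated fibro-adipogenic cells (243 and 379 in total muscle 1 and 2). Its sum of Pi16, Dpp4, Wnt2 and Sema3c UMIs had to be at least 2 and larger than both the sum of Smoc2, Cxcl14 and Col15a1 and the sum of Mmp3, Sfrp5, Sfrp4 and Cxcl13. The mirrored rule gave 374 Smoc2 cells (145 and 229) and 61 Mmp3 cells (21 and 40), which served as the comparison, and 28 gated cells fell in no class. Both total muscle libraries came from wild-type mice of the strain written C56BL/6J in the labels, 3 months old, whose hindlimb muscle was digested with enzymes and whose live cells were sorted. The labels mention no injury for these libraries, and do not state whether the libraries came from different mice or how many mice were pooled. The p-values therefore measure only how far differences between the classes varied between these 2 libraries. The other 5 libraries hold sorted muscle stem cells, without injury or 60 h after 2 µM notexin, and cultured primary myoblasts. The same gate found 9 fibro-adipogenic cells in those 5 libraries, none of them a Pi16 cell.

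Fibro-adipogenic progenitors are the mesenchymal cells of the muscle interstitium. They carry the PDGF receptor alpha, make collagen and other matrix proteins, support muscle stem cells after injury and can become adipocytes or fibrogenic cells. Cells that carry Pi16 (peptidase inhibitor 16) and Dpp4 (dipeptidyl peptidase 4, a surface enzyme also called CD26) have been described in many organs, near fascia and large vessels, and are often discussed as an early progenitor state of fibroblasts. Wnt2 is a secreted ligand of the Wnt pathway, and Sema3c is a secreted semaphorin, a guidance cue for axons and vessels.

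In depth the whole libraries came to 7853341 UMIs (1982 barcodes) for total muscle 1 and 9835824 UMIs (2432 barcodes) for total muscle 2. Pi16 cells had a median of 6095 and 5776 UMIs per cell, against 4888 and 4827 in Smoc2 cells and 6561 and 5785 in Mmp3 cells, so they were deeper than Smoc2 cells and not deeper than Mmp3 cells. The UMIs of all cells of a class were summed per library for the comparisons. The sums came to 404678 and 601411 UMIs for Pi16 cells, 752612 and 1183721 for Smoc2 cells and 144178 and 253277 for Mmp3 cells. Levels are given as CPM, a gene's UMIs scaled to a fixed total of the class's UMIs and so comparable between sums of different size, for total muscle 1 and total muscle 2 in that order. No Pi16 cell shared its barcode with a cell of the other total muscle library, and 2 and 1 of them shared one with any other library. Scrublet marked 10 of 4393 cells of total muscle as doublets (0.228%), a share too low to count as a working call, and marked none of the Pi16 cells.

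Pi16 cells made up 25.1% of the gated fibro-adipogenic cells in total muscle 1 (61 of 243, exact binomial 95% interval 19.8 to 31.0%) and 25.9% in total muscle 2 (98 of 379, 21.5 to 30.6%). Of all cells that passed the filters they were 3.10% and 4.04%. The share among gated cells was thus close in both libraries, 25.5% ± 0.534 (SD, n = 2 libraries), while the share of all cells differed more. Such intervals, and the limits given below for counts of 0, cover counting error only. The rule sets these shares: with Pi16 left out of the sum the mean share was 11.8%, and with the other sums required to be 0 it was 4.75%.

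The gene sum that chose the cells was carried by Pi16, which made up 87.9% and 85.2% of its UMIs in the 2 libraries. Pi16 stood at 4992 and 4305 CPM in Pi16 cells, with a median of 26 and 17.5 UMIs per cell and at most 147 and 123. Sema3c followed at 371 and 426 CPM, Dpp4 at 213 and 234 CPM and Wnt2 at 104 and 89.8 CPM. These values come from the genes that chose the cells and are a description without a test. A UMI of Pi16 was found in 98.4% and 96.9% of the cells, of Sema3c in 70.5% and 78.6%, of Dpp4 in 62.3% and 64.3% and of Wnt2 in 26.2% and 23.5%. After each cell was thinned to 1000 UMIs the Pi16 share was 91.8% and 83.7% and the Dpp4 share 16.4% and 16.3%. Dpp4 was therefore seen in most of the cells only at full depth. Of the 61 Pi16 cells of total muscle 1, 10 showed 1 of the 4 genes, 17 showed 2, 23 showed 3 and 11 showed all 4. In total muscle 2 these were 13, 28, 39 and 18 of 98 cells.

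**Figure D1:**
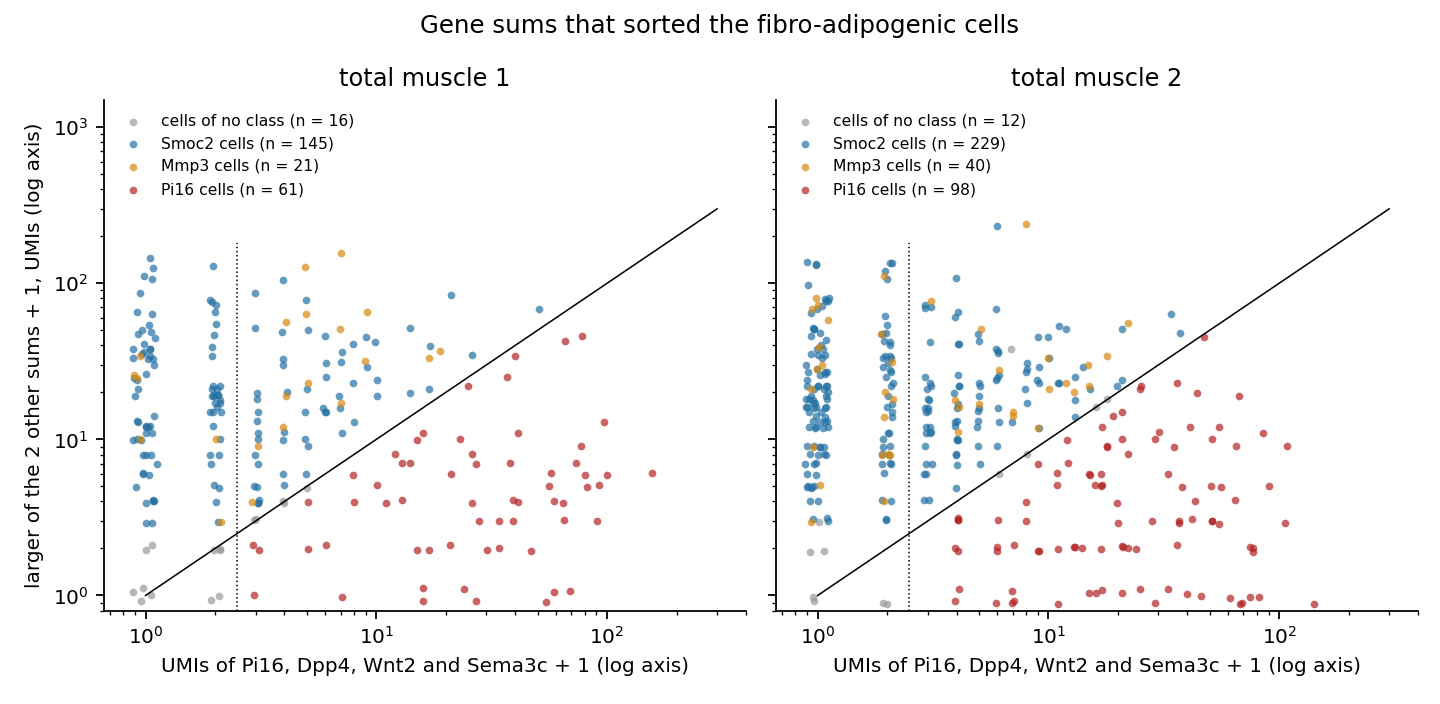
Each point is a gated fibro-adipogenic cell of total muscle 1 (left) or 2 (right), by its UMIs of Pi16, Dpp4, Wnt2 and Sema3c plus 1 (x, log axis) and the larger of the Smoc2 and Mmp3 sums plus 1 (y, log axis), with points spread slightly to separate equal counts. The diagonal marks equal sums and the dotted line the minimum of 2; the 61 and 98 Pi16 cells lie to the right of both.

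Few cells lay close to the threshold. The sum of the 4 genes had a median of 27 and 20 UMIs in Pi16 cells and ranged from 2 to 156 and from 3 to 141, while the larger of the 2 other sums had a median of 3 and 2. In 5 and 8 Pi16 cells the lead over the other sums was 1 or 2 UMIs, and 9 and 6 cells outside were behind by as little. The other sums were at 0 in 9 of the 61 and 22 of the 98 cells. The genes of the rule were not confined to 1 class: Pi16 had a UMI in 51% and 48% of Smoc2 cells and 61.9% and 45% of Mmp3 cells, at 432 and 412 CPM in the former and 381 and 430.4 in the latter. Genes of the other sums were seen in Pi16 cells as well: Smoc2 had a UMI in 63.9% and 43.9% of them, Sfrp4 in 37.7% and 32.7% and Cxcl13 in 26.2% and 18.4%. For Cxcl13, a B cell chemokine of the Mmp3 sum, this was far more than in Smoc2 cells (2.07% and 1.31%) and close to Mmp3 cells (28.6% and 20%). Endothelial cells of the same libraries, which should lack Pi16, showed a UMI in 9.72% and 8.31% of cells at a median depth of 2597 and 2560 UMIs, and immune cells in 9.85% and 12.9%. The Smoc2 share, thinned to 1000 UMIs like the others, was 20% and 22.3% against 3.12% and 2.95% in endothelial cells.

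A gene left out of the sum gives a value that did not choose the cells. With Pi16 left out, 28 and 46 cells met the rule by Dpp4, Wnt2 and Sema3c alone, and Pi16 stood at 6477 and 4619 CPM in them. All are members by the full rule, since adding Pi16 can only raise the sum. Pi16 stood at 639 and 596 CPM in the Smoc2 cells of that gate and at 2078 and 1904 in its Mmp3 cells. By the full rule, 14 of those 162 and 21 of those 253 Smoc2 cells were Pi16 cells. So were 10 of those 33 and 17 of those 58 Mmp3 cells. With Dpp4 left out it stood at 201 and 227 CPM in the cells kept, against 41.2 and 37.7 in Smoc2 cells and 139 and 128 in Mmp3 cells. Wnt2 left out gave 104 and 89.8 CPM against 2.66 and 5.07 in Smoc2 cells and 48.6 and 15.8 in Mmp3 cells. Sema3c left out gave 371 and 423 CPM against 51.5 and 43.7 in Smoc2 cells and 90.2 and 136 in Mmp3 cells. Each of the 4 genes thus had its highest level in the cells that the other 3 chose, in both libraries. These gates share most of their cells with the full rule, and no test was made.

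The cells carried the general markers of fibro-adipogenic progenitors that the rule did not use. All 10 of these (Ly6a, Cd34, Col1a1, Col1a2, Col3a1, Lum, Gsn, Clec3b, Serping1 and Mgp) had counts, and their summed level was 51214 and 47851 CPM in Pi16 cells, 62687 and 67693 in Smoc2 cells and 61056 and 61581 in Mmp3 cells. The 12 endothelial markers outside the rule summed to 437 and 402 CPM, against 470.4 and 389 in Smoc2 cells. The 9 macrophage and monocyte markers summed to 29.7 and 29.9 CPM, with Adgre1, Csf1r, C1qa, C1qc and Mrc1 at 0, and the 6 T and NK cell markers to 0 and 4.99 CPM. Tenocyte markers (9) summed to 247 and 266 CPM in Pi16 cells, 498 and 378 in Smoc2 cells and 104 and 150.0 in Mmp3 cells. Of the 8 myogenic markers, Pax7, Myf5, Myod1 and Chrdl2 were at 0, and mural cell markers summed to 34.6 and 36.6 CPM. Of the marker lists of other cell types, the 5 B cell markers were the only ones that summed higher in Pi16 cells than in both other classes in both libraries (79.1 and 175 CPM, against 75.7 and 115 in Smoc2 and 76.3 and 94.8 in Mmp3 cells). Most of that sum was Cd74, an MHC class II chaperone, which did not pass the test (0.31 ± 0.22 against Smoc2 cells), and Ms4a1 was at 0. Erythroid markers summed to 116 and 48.2 CPM, and myofibre markers to 229.8 and 314 against 387 and 443 in Smoc2 cells.

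Pi16 cells differed from Smoc2 cells in their matrix, signalling and surface genes. Igfbp5 stood at 2002 and 1733 CPM in Pi16 cells and 280.4 and 187 in Smoc2 cells, and genes of microfibrils, of hyaluronan synthesis and of the interstitial progenitor list were among the higher ones. Collagen IV and other basement membrane genes, adipogenic and lipid genes, the BMP target Id3, heat shock genes and immediate early genes were among the lower ones. A neighbouring trio better known from the epidermis, Sbsn, Dmkn and Krtdap, was among the largest rises. The 2 classes were compared across all genes that passed a filter on low counts (5677 outside the rule) with edgeR's quasi-likelihood test, with the library as a term. At an adjusted p under 0.05, 248 genes were higher in Pi16 cells (4.37% of those tested) and 309 lower (5.44%), 557 in all (9.81%). Of these, 171 and 197 differed more than 2-fold. Without scaling between the sums, which moves the median gene from -0.01 to 0.08 on the log2 scale, 329 were higher and 255 lower. Genes that go with Pi16 from cell to cell had to differ between classes cut by Pi16. A call thus says only that a difference was large beside its variation between the libraries. It does not require a like difference in both, as with Hspb1 against Mmp3 cells, given below. The comparisons with Smoc2 and with Mmp3 cells share the Pi16 sums.

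Of the 12 largest rises against Smoc2 cells, 3 were in genes best known from the skin's outer layer. Krtdap (keratinocyte differentiation-associated protein, chr7:30787896-30791097, plus strand, GRCm38) stood at 156 and 161 CPM in Pi16 cells and 5.31 and 0.845 in Smoc2 cells, and had no UMI in Mmp3 cells. The log2 difference from Smoc2 cells was 5.73 ± 0.42 (SE, adjusted p = 5.26e-06), with 4.54 in total muscle 1 alone and 6.60 in total muscle 2 alone. Dmkn (dermokine, a secreted protein of the epidermis, chr7:30763756-30781063, plus strand, GRCm38) stood at 101 and 119.7 CPM and had no UMI in either of the other classes. Counted against 3 UMIs over both libraries, it was at least 72.5-fold higher than in Smoc2 cells (adjusted p = 6.74e-06). Sbsn (suprabasin, chr7:30751471-30756134, plus strand) stood at 242 and 213 CPM against 7.97 and 7.6 in Smoc2 cells, a log2 difference of 4.74 ± 0.31 (adjusted p = 1.32e-06). Both libraries were far above both Smoc2 sums for all 3 genes, although a like direction in both was a condition of their choice. Of 9 mesothelial and epithelial markers, Krt5, Krt14, Msln, Upk3b and Lrrn4 were at 0 in Pi16 cells. The list summed to 19.8 and 48.2 CPM against 26.6 and 32.1 in Smoc2 cells. Krt19 was highest in Pi16 cells, at 9.88 and 24.9 CPM against 6.64 and 5.07 in Smoc2 and 0 and 3.95 in Mmp3 cells. Krt8 stood at 2.47 and 9.98 CPM against 3.99 and 5.91 in Smoc2 cells. Krt18 stood at 2.47 and 8.31 against 7.97 and 11 CPM there and Epcam at 4.94 and 4.99 against 5.31 and 10.1. The last bases of Sbsn are shared with the overlapping transcript Tmem147os, so its count could be split.

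Sbsn, Dmkn and Krtdap lie in this order on the plus strand of chromosome 7 within 39.6 kb, and their upstream sequences are shown because these neighbours were high together. They are the bases before each start in RefSeq (GRCm38.p6), 5′ to 3′. For Dmkn the first of 3 listed starts was taken, and for Krtdap the run ends before the first base of the gene in GENCODE M21. Capitals mark matches on either strand to CCACCC (the CACCC box), to GGGCGG (the GC box) or to TATAAA (the TATA box). They also mark TGANTCA, with any base at N, the pattern used here for the factor AP-1.
Sbsn, chr7:30751221-30751470: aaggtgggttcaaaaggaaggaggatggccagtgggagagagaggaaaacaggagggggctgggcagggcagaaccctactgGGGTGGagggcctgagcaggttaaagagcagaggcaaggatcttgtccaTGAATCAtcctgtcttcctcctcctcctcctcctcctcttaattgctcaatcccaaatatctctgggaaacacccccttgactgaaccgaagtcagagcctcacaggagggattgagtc
Dmkn, chr7:30763506-30763755: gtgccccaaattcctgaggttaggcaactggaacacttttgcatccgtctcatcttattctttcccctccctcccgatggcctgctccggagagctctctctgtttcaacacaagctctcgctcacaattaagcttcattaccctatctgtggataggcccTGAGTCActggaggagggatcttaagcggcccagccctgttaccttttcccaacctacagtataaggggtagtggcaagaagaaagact
Krtdap, chr7:30787655-30787895: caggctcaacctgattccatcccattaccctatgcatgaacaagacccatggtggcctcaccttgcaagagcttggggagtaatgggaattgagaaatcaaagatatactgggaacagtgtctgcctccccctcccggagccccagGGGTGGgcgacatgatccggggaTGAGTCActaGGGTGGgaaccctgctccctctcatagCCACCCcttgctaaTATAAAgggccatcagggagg
Each of the 3 holds a TGANTCA match, TGAATCA in Sbsn (119 to 113 bases before the start) and TGAGTCA in Dmkn (89 to 83) and Krtdap (81 to 75). Of all 32851 promoters in the table, 6.75% hold such a match within 250 bases before the start. The upstream 250 bases of Pi16, Dpp4, Wnt2, Sema3c, Il18, Efhd1, Igfbp5 and Cd55 hold none. Krtdap also has TATAAA 30 to 25 bases before its start, which 12.4% of promoters hold somewhere in this window, and 3 matches to CCACCC, which 28.1% hold at least once. A match is a run of letters and not evidence of binding, and no matched letters in a window says nothing of the factor.

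These 3 genes were seen in a minority of Pi16 cells. A UMI of Sbsn was found in 39.3% and 24.5% of the cells, of Krtdap in 16.4% and 14.3% and of Dmkn in 18% and 8.16%. In Smoc2 cells the share was 4.14% and 3.49% for Sbsn and 2.76% and 0.437% for Krtdap, and Dmkn was in 0 of 145 and 0 of 229 cells, which allows shares of up to 2.07% and 1.31% by the limit of 3 counts used here for a count of 0 (the exact binomial 95% interval reaches 2.51% and 1.60%). In endothelial cells, which should lack these genes, the share was 1.04% and 1.88% for Sbsn, 0% and 0.804% for Krtdap and 0% and 0.268% for Dmkn, at the depth given above. Thinned to 1000 UMIs per cell, for which no cell was too shallow, the shares in Pi16 cells were 14.8% and 12.2% for Sbsn, 9.84% and 5.1% for Krtdap and 6.56% and 6.12% for Dmkn. In total muscle 1, 35 of 61 Pi16 cells had none of the 3, 13 had 1, 7 had 2 and 6 had all 3, and in total muscle 2 these were 71, 12, 11 and 4 of 98. Of 374 Smoc2 cells, 1 had 2 of them and none had 3. The counts were uneven among the cells that had them: the highest count in a cell was 35 UMIs for Krtdap and 25 for Dmkn, both in total muscle 2.

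**Figure D2:**
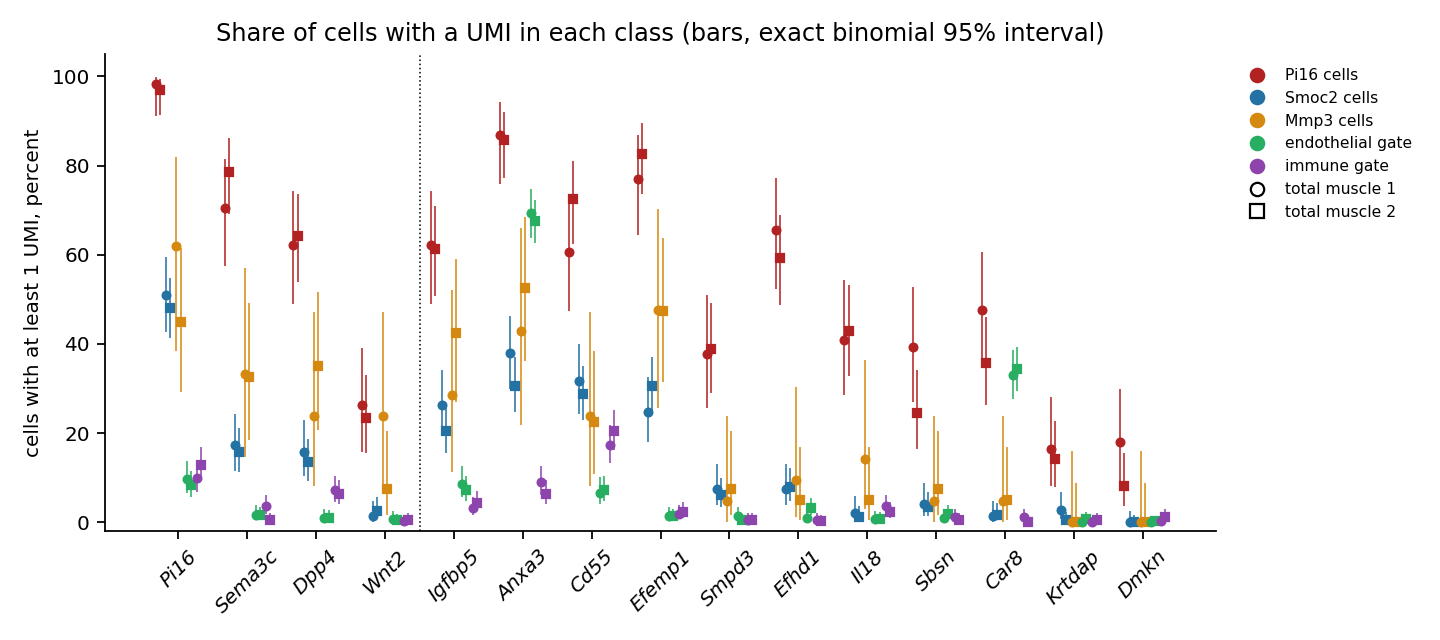
Share of cells with at least 1 UMI (y, percent) for the 4 genes of the rule, left of the dotted line, and 11 genes outside it, in Pi16, Smoc2 and Mmp3 cells and in endothelial and immune cells of the same libraries; circles are total muscle 1, squares total muscle 2, and bars exact binomial 95% intervals. Each of the 11 genes had its highest share in Pi16 cells in both libraries, and Car8 and Anxa3 were also frequent in endothelial cells. This does not hold for all leading rises: Itgb7, not drawn here, was more frequent in immune than in Pi16 cells.

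The other leading rises were in genes of varied roles. Efhd1 (a mitochondrial calcium-binding protein) stood at 215 and 216 CPM against 14.6 and 16.9 in Smoc2 cells, a log2 difference of 3.65 ± 0.25 (adjusted p = 1.68e-06), with a UMI in 65.6% and 59.2% of Pi16 cells and 7.59% and 7.86% of Smoc2 cells. Il18 (an interleukin of the IL-1 family) stood at 109 and 138 CPM against 3.99 and 3.38, with log2 differences of 4.36 in total muscle 1 alone and 4.99 in total muscle 2 alone. Smpd3 (neutral sphingomyelinase 2) stood at 361 and 171 CPM against 25.2 and 16.1, a log2 difference of 3.53 ± 0.23. The Pi16 sums lay above the Smoc2 sums in both libraries for all 3, which the choice of the largest rises required. Opcml (a cell adhesion molecule) stood at 66.7 and 89.8 CPM against 6.64 and 5.91. Stmn4 (a stathmin, which binds tubulin) stood at 205 and 109.7 CPM against 6.64 and 14.4, with log2 differences of 4.66 in total muscle 1 alone and 2.78 in total muscle 2 alone. Dact2 (a regulator of Wnt and TGF-beta signalling) stood at 47 and 56.5 CPM against 2.66 and 1.69, with 3.60 in total muscle 1 alone and 4.48 in total muscle 2 alone. Itgb7 (an integrin chain) stood at 44.5 and 61.5 CPM, and its ratio to Smoc2 cells, where 2 UMIs were counted, was 52.9 (95% counting interval 14 to 448). A UMI of Itgb7 was found in 9.84% and 15.3% of Pi16 cells and in 21.8% and 23.1% of immune cells.

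A pair of the leading genes was also frequent in endothelial cells. Ecscr (an endothelial surface protein) stood at 109 and 109.7 CPM in Pi16 cells and 6.64 and 0.845 in Smoc2 cells, with log2 differences of 3.75 in total muscle 1 alone and 6.05 in total muscle 2 alone, and at 424 and 446 CPM in endothelial cells. Car8 (a carbonic anhydrase-related protein) stood at 96.4 and 84.8 CPM against 2.66 and 3.38 (log2 difference 4.67 ± 0.37) and at 131 and 145 CPM in endothelial cells. Over the 12 endothelial markers the sums given above were close in Pi16 and Smoc2 cells, but they were carried by Ptprb, Fabp4 and Eng. Among the scarcer members, Cldn5 (a tight junction protein) stood at 29.7 and 18.3 CPM in Pi16 cells against 7.97 and 11 in Smoc2 cells, Cdh5 (VE-cadherin) at 9.88 and 4.99 against 3.99 and 3.38 and Flt1 (a VEGF receptor) at 12.4 and 13.3 against 3.99 and 11. Kdr, another VEGF receptor, stood at 7.41 and 13.3 against 10.6 and 0.845 CPM. Egfl7 stood at 2.47 and 18.3 against 3.99 and 3.38 and Cd36 at 14.8 and 33.3 against 7.97 and 18.6. Esam went the other way, at 4.94 and 1.66 CPM in Pi16 cells against 10.6 and 8.45 in Smoc2 cells. Emcn stood at 4.94 and 0 against 2.66 and 3.38 CPM and Tie1 at 7.41 and 1.66 against 6.64 and 0.845. Of the 4 members that passed the filter on low counts only Eng was called, lower in Pi16 cells. The part of endothelial RNA in the values of Ecscr and Car8 was not tested.

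The largest falls included genes of matrix and growth factor signalling. Crispld2 (a secreted cysteine-rich protein) stood at 19.8 and 16.6 CPM in Pi16 cells and 267 and 264 in Smoc2 cells, a log2 difference of -3.95 ± 0.27 (adjusted p = 1.71e-06). Mgp (matrix Gla protein, an inhibitor of calcification) stood at 222 and 354 against 2271 and 1667 CPM, -2.84 ± 0.21 on the log2 scale. Both Pi16 sums lay below both Smoc2 sums for both genes, although a like direction in both libraries was a condition of their choice. Bmp5 (a BMP ligand) stood at 9.88 and 8.31 against 67.8 and 64.2 CPM, Nppc (C-type natriuretic peptide) at 7.41 and 4.99 against 51.8 and 59.1 and Steap4 (a metalloreductase) at 22.2 and 26.6 against 134 and 189. Fscn1 (fascin, an actin-bundling protein) stood at 7.41 and 11.6 against 73.1 and 69.3 CPM. Another 5 of the 12 largest falls rested on few counts in Pi16 cells and moved by over 1.5 times when 1 library was left out. Among them Dlk1 (an inhibitor of adipogenesis) had log2 differences of -4.89 in total muscle 1 alone and -3.33 in total muscle 2 alone, and Mdk (midkine) of -4.46 in total muscle 1 alone and -2.26 in total muscle 2 alone.

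**Figure D3:**
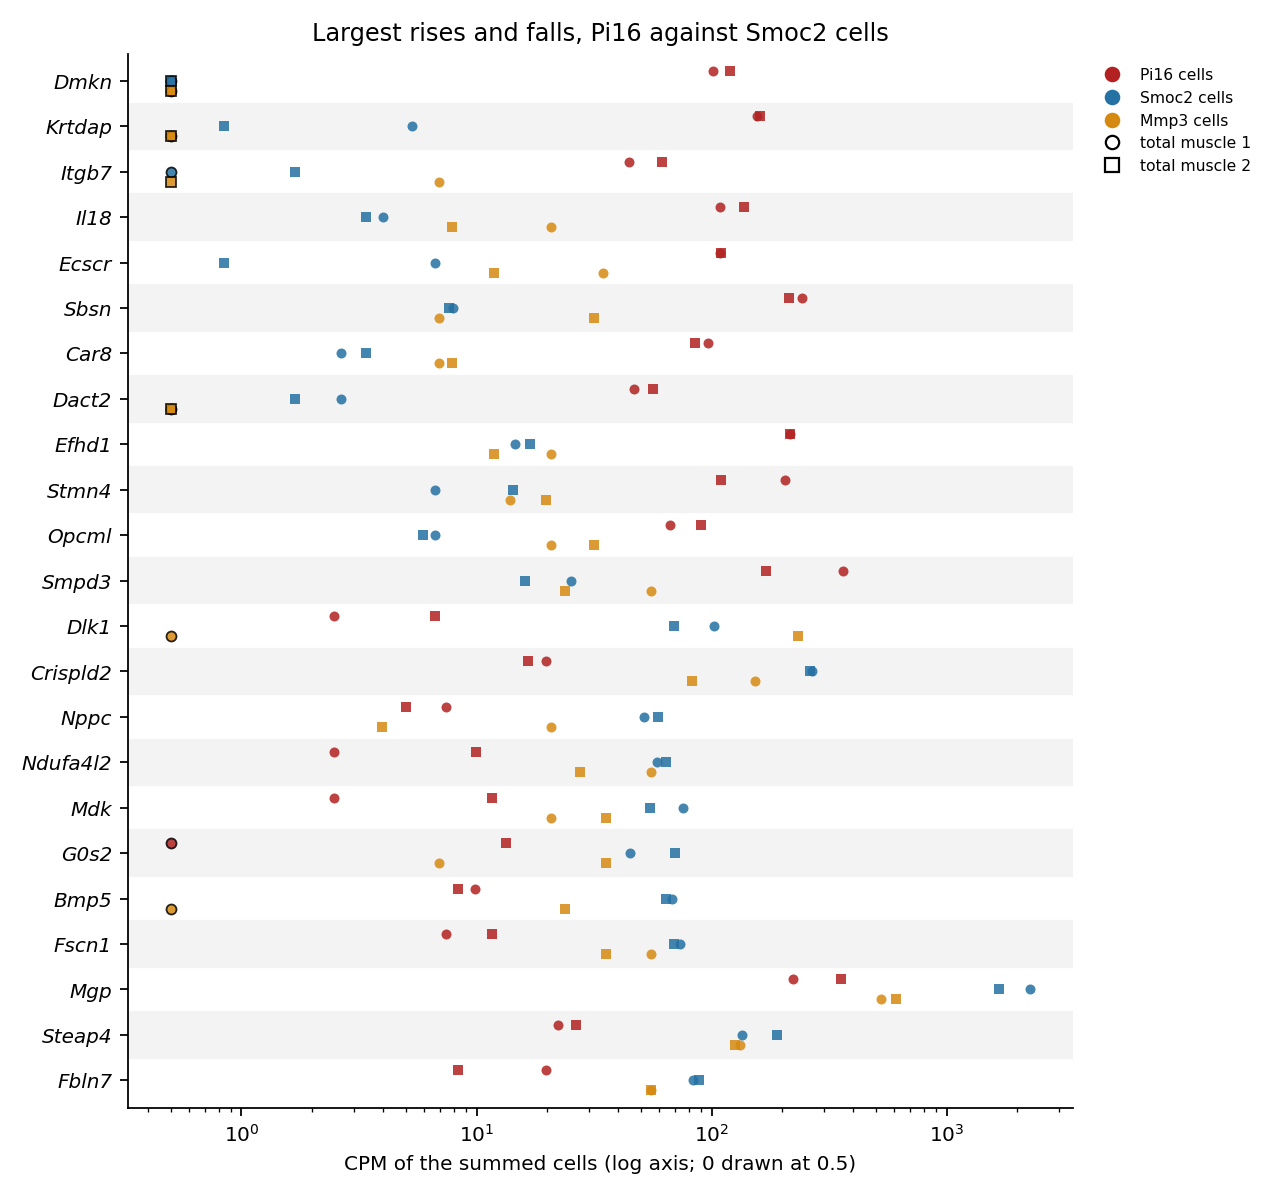
CPM (x, log axis) of the 12 genes with the largest rises (upper rows) and 11 of the 12 with the largest falls (lower rows) in Pi16 against Smoc2 cells; circles are total muscle 1, squares total muscle 2, and outlined points drawn at 0.5 stand for 0 counts. The red points of Pi16 cells lie to the right of the blue Smoc2 points in the upper rows and to the left in the lower rows. This holds in both libraries, which the choice of these genes required.

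Genes often named for Pi16 and Dpp4 fibroblasts of other tissues were taken as a list of interstitial progenitor genes. Of its 40 members outside the rule 39 were tested, and 35 were higher in Pi16 than in Smoc2 cells and none lower, also by DESeq2 or at an unadjusted p under 0.05, with a median log2 difference of 1.26 against -0.01 over all tested genes. The 4 not called were Nov, Tppp3, Dpt and Ebf2. This list was chosen with results of these data known and is no independent evidence of its direction. Igfbp5 (an IGF-binding protein) stood at 2002 and 1733 CPM against 280.4 and 187, a log2 difference of 2.93 ± 0.23. Anxa3 (an annexin) stood at 897 and 725 against 155 and 117 CPM (2.49 ± 0.16). Cd55 (a surface inhibitor of complement) stood at 334 and 412 against 86.4 and 78.6 CPM (2.10 ± 0.18), although its copy Cd55b shares the end of its transcript. Ly6a, which encodes the stem cell antigen Sca-1, stood at 2864 and 2682 against 1371 and 1286 CPM (0.97 ± 0.11).

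Matrix genes split by their kind. Of the elastic fibre and microfibril genes, 6 of 18 tested members were higher in Pi16 cells and 1 lower (median log2 difference 0.06). Efemp1 (fibulin-3) stood at 628 and 743 CPM against 93 and 112, Fbn1 (fibrillin-1, the core of microfibrils) at 791 and 773 against 306 and 239.9 and Mfap5 (a microfibril protein) at 3166 and 3731 against 1305 and 1584. Their log2 differences were 2.65 ± 0.18, 1.44 ± 0.14 and 1.17 ± 0.11. Of the 14 tested basement membrane genes 10 were lower in Pi16 cells (5 by DESeq2) and 1 was higher (median log2 difference -0.88). This list also counts the collagen VI chains Col6a1, Col6a2 and Col6a3, which were all among the lower ones (-0.69, -0.78 and -1.11). Col4a1 (a collagen IV chain) stood at 282 and 199.5 CPM against 684 and 705, -1.64 ± 0.16 on the log2 scale, and Nid1 (nidogen-1) was the member that was higher, at 773 and 695 against 519.5 and 487 CPM. The fibrillar collagens Col1a1, Col1a2 and Col3a1 had log2 differences of -0.10, -0.01 and -0.25 and did not pass the test, while Col14a1 (a collagen on the surface of fibrils) stood at 400.3 and 367 against 110.3 and 92.9 CPM (1.83 ± 0.16). Of 8 small leucine-rich proteoglycans 4 were lower, Lum (lumican, -1.56), Bgn (biglycan, -1.32), Podn and Prelp, and Aspn (asporin) was higher (1.34 ± 0.24).

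Of the hyaluronan genes, 5 of 11 tested members were higher in Pi16 cells and 1 lower (median log2 difference 0.53). Has1 (a hyaluronan synthase) stood at 2760.2 and 2875 CPM in Pi16 cells and 1270.2 and 1322 in Smoc2 cells (1.03 ± 0.14), and Ugdh, which makes the UDP-glucuronate it uses, at 3039.5 and 3494 against 1676 and 1630.5 (0.89 ± 0.12). Itih5 was the member that was lower (-0.84 ± 0.15). Of the proteases and their inhibitors, 10 of 29 tested members were higher in Pi16 cells and 5 lower (median log2 difference 0.04). Timp2 (a metalloprotease inhibitor) stood at 2073 and 1733 against 793 and 782 CPM (1.18 ± 0.12), and Cst3 (cystatin C) at 867 and 1212 against 3178 and 2467 (-1.51 ± 0.18).

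Among signalling genes, members of the TGF-beta and BMP list were more often lower: 2 of 30 tested members were higher in Pi16 cells and 9 lower (median log2 difference -0.39). Beside the ligand Bmp5, the BMP target Id3 was lower (879.7 and 991 against 1754 and 1868 CPM, -1.04 ± 0.12), as was Tgfbi, a matrix protein induced by TGF-beta (198 and 146 against 336 and 387 CPM, -1.18 ± 0.20). Tgfbr2 (a TGF-beta receptor chain) was higher, at 203 and 196 against 75.7 and 92.1 CPM (1.15 ± 0.24). Of 15 tested Wnt pathway genes outside the rule, 2 were higher (Dact2 and Sulf1) and 1 lower (Sfrp1), and of 10 semaphorin and axon guidance genes 3 were higher (Sema3b, Plxna1 and Gap43) and 1 lower (Nrp1, a semaphorin receptor). Over all tested genes the share called in either direction was 9.81%, as given above. In the IGF axis Igfbp5, Igfbp4 (1.16) and Igfbp6 (0.80) were higher and Igfbp7 lower (734 and 717 against 1726 and 1998 CPM, -1.45 ± 0.13).

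Adipogenic and lipid genes were lower or not called. Of 16 tested members 8 were lower by edgeR's test (5 by DESeq2) and none higher, also at an unadjusted p under 0.05 and by DESeq2, with a median log2 difference of -0.75. The list also counts F3 and Icam1, which are in the list of surface genes too and were both among the lower ones (-0.81 and -1.31). Pparg, Plin1 and Adipoq did not pass the filter on low counts. Apod (an apolipoprotein) stood at 455 and 432 CPM against 2333 and 1910.1 (-2.33 ± 0.17). Cebpb, an early factor of adipogenesis, stood at 1537 and 1799 against 2365 and 2534 CPM (-0.64 ± 0.11). Apoe (an apolipoprotein) stood at 269 and 125 against 581 and 649 CPM, with log2 differences of -1.17 in total muscle 1 alone and -2.47 in total muscle 2 alone. Among surface genes 8 of 26 were higher and 8 lower. The higher ones included Ly6c1 (1.21), which has near-identical copies, and the lower ones Icam1, an adhesion molecule (-1.31), and the tetraspanin Cd9 (-0.68).

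Immune mediators differed in both directions. Cxcl1 (a neutrophil chemokine) stood at 3914 and 4634 CPM in Pi16 cells and 8223 and 8755 in Smoc2 cells (-1.08 ± 0.11), Il6 at 430.0 and 431 against 784 and 963 (-1.11 ± 0.17) and the eosinophil chemokine Ccl11 at 1181 and 1008 against 2572 and 3769 (-1.64 ± 0.23). Complement C3 was higher, at 1690.2 and 1486 against 686 and 557 CPM (1.27 ± 0.12), as was Ackr3, a scavenging chemokine receptor (1.23 ± 0.13). Of 23 interferon and MHC class I genes 4 were higher (Isg15, Irf7, Bst2 and Psmb9) and Irf1 was lower. Bst2 (tetherin) stood at 514 and 392 against 170.1 and 128 CPM (1.52 ± 0.14).

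Of 39 tested transcription factors of fibroblasts, 5 were higher in Pi16 than in Smoc2 cells (Klf2, Prrx1, Creb5, Foxp1 and Maf) and 6 lower (Meox1, Foxs1, Tcf4, Nfib, Nfia and Sox9). Among all tested genes 4.37% were called higher and 5.44% lower in this comparison. Klf2 stood at 697 and 1676 CPM against 526 and 678, with log2 differences of 0.34 in total muscle 1 alone and 1.21 in total muscle 2 alone. Nfib, of the nuclear factor I family, stood at 227 and 171 against 280.4 and 287 CPM (-0.62 ± 0.16), and Nfia, of the same family, at 101 and 173 against 214 and 224 (-0.75 ± 0.20).

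**Figure D4:**
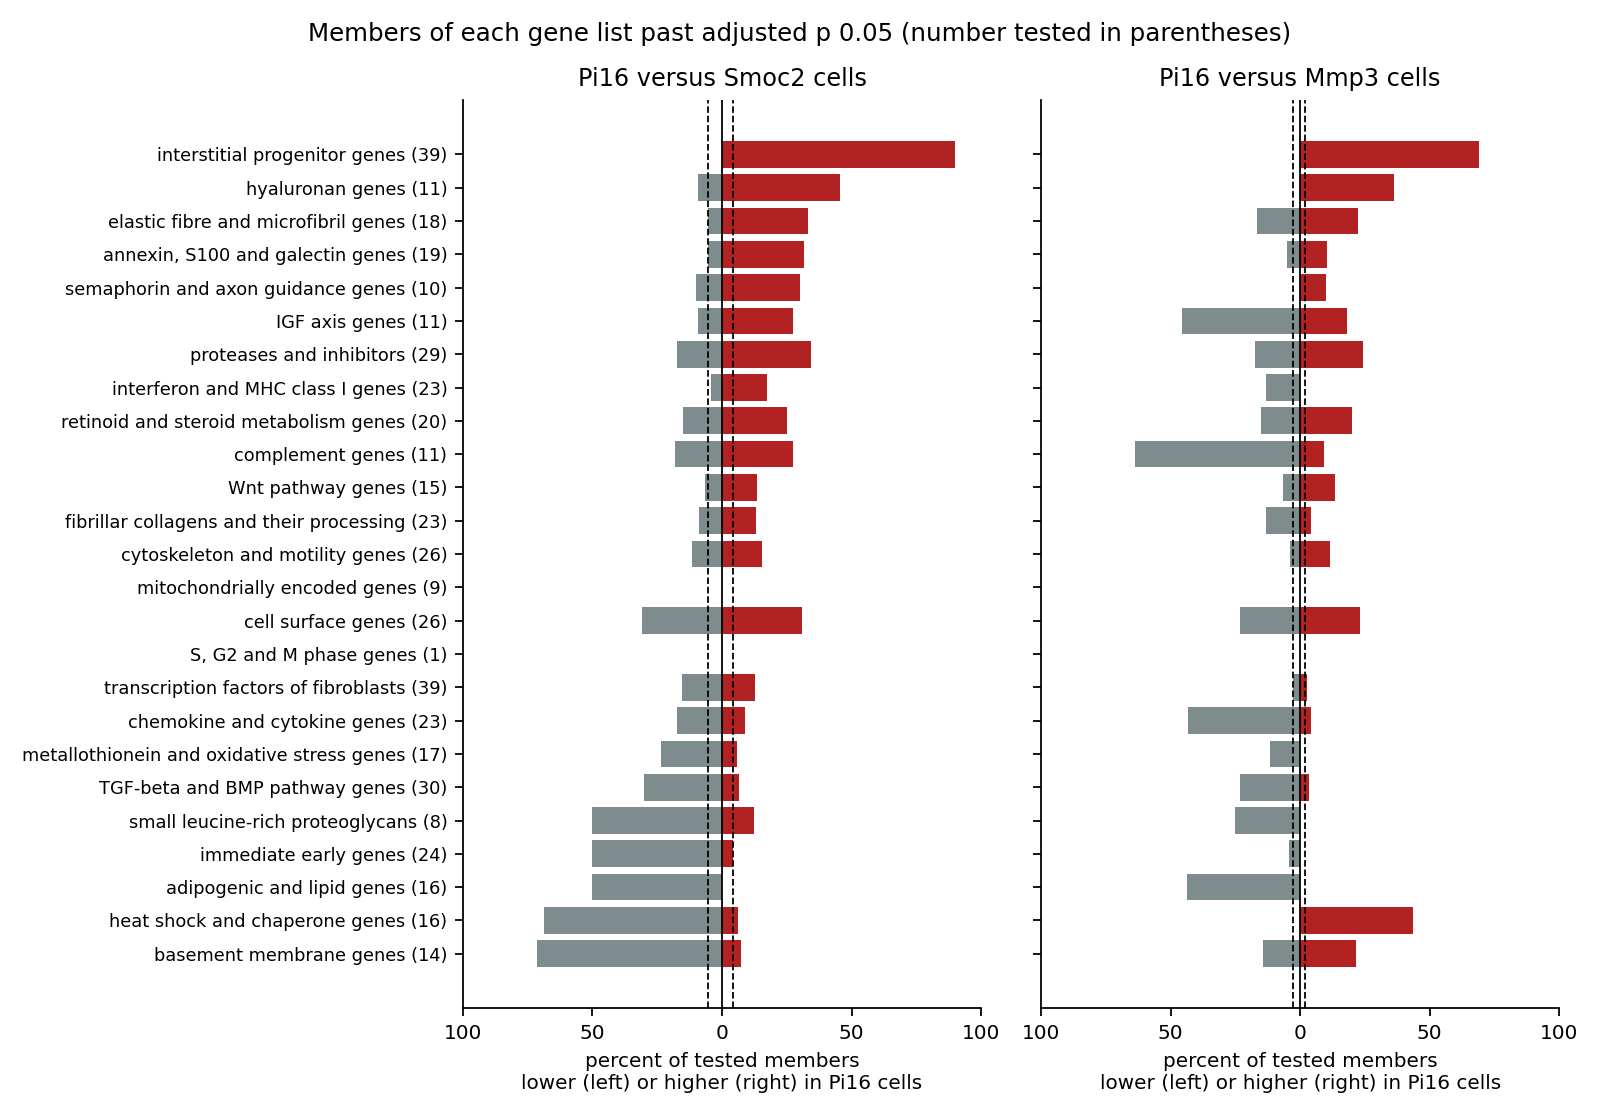
Bars give the share of tested members of each gene list (number tested in parentheses) that were higher (red, right) or lower (grey, left) in Pi16 cells at an adjusted p under 0.05, against Smoc2 cells (left panel) and Mmp3 cells (right panel); dashed lines mark the same shares over all tested genes. Interstitial progenitor genes reach 35 of 39 and 27 of 39 on the right, and heat shock genes lie left in the first panel and right in the second.

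Pi16 cells differed from Mmp3 cells in inflammatory, matrix and progenitor genes. Cytokines and complement genes, Il6 and C2 among them, were lower in Pi16 cells, as were the collagen I genes and Apod and Apoe of the lipid list. Members of the interstitial progenitor list, hyaluronan genes and heat shock genes were higher. Of all tested genes, 102 were higher in Pi16 cells (1.80% of 5677) and 158 lower (2.78%), 260 in all (4.58%). Of these, 75 and 125 differed more than 2-fold. The Mmp3 sums hold fewer UMIs than the Smoc2 sums, so the same difference passes less easily. Krtdap, Dmkn, Dact2 and Gap43 (a growth cone protein) had no UMI in Mmp3 cells, and were at least 21.1-fold, 14.9-fold, 6.98-fold and 5.00-fold higher in Pi16 cells, counted against 3 UMIs over both libraries. Efhd1 stood at 20.8 and 11.8 CPM in Mmp3 cells, a log2 difference of 3.74 ± 0.39 (adjusted p = 0.000131). Sbsn stood at 6.94 and 31.6 CPM, with log2 differences of 4.82 in total muscle 1 alone and 2.66 in total muscle 2 alone, and Il18 at 20.8 and 7.9 CPM, with 2.23 in total muscle 1 alone and 3.94 in total muscle 2 alone. Aldh1a3 (a retinaldehyde dehydrogenase) stood at 128 and 49.9 CPM in Pi16 cells and at 0 and 3.95 in Mmp3 cells, where 1 UMI was counted, a ratio of 32.4 (95% counting interval 5.65 to 1295). Its transcript end is shared with 17 other genes, so its count is uncertain.

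The interstitial progenitor list again lay to one side, with 27 of 39 members higher in Pi16 than in Mmp3 cells by edgeR's test and 14 by DESeq2, none lower by either or at an unadjusted p under 0.05, and a median of 1.17 against 0.01 over all genes. Cd55 stood at 41.6 and 75 CPM in Mmp3 cells (2.52 ± 0.26), Fbn1 at 229 and 257 (1.58 ± 0.17) and Mfap5 at 1082 and 1421 (1.38 ± 0.12). Igfbp5 stood at 139 and 324 CPM, with log2 differences of 3.74 in total muscle 1 alone and 2.36 in total muscle 2 alone. Ly6a did not pass this test (0.07), with 2330.5 and 2641 CPM in Mmp3 cells. Of the hyaluronan genes 4 of 11 were higher, among them Has1 (0.64 ± 0.14) and Vcan (versican, 1.31 ± 0.21).

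Inflammatory genes were lower in Pi16 than in Mmp3 cells. Of 23 chemokine and cytokine genes 1 was higher and 10 lower (median -0.87), and of 11 complement genes 1 was higher, Cd55, and 7 lower (median -0.77). Il6 stood at 430.0 and 431 CPM in Pi16 cells and 2164 and 1623 in Mmp3 cells (-2.21 ± 0.17, adjusted p = 1.52e-05). Lif (a cytokine of the IL-6 family) stood at 7.41 and 13.3 against 104 and 122 CPM (-3.45 ± 0.40), and C2 (a complement protease) at 37.1 and 18.3 against 236 and 130.3 (-2.81 ± 0.33). Both Mmp3 sums lay above both Pi16 sums for each. Isg15 (an interferon-induced ubiquitin-like protein) and C4b were higher in Pi16 than in Smoc2 cells and lower than in Mmp3 cells: Isg15 stood at 166 and 243 CPM in Pi16, 79.7 and 76.9 in Smoc2 and 479 and 434 in Mmp3 cells, and C4b at 190.3 and 113, 79.7 and 36.3 and 388 and 284. Each has a near-identical copy of its transcript end elsewhere.

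Of 23 fibrillar collagen and processing genes 1 was higher and 3 were lower in Pi16 than in Mmp3 cells, and of 18 elastic fibre and microfibril genes 4 were higher and 3 lower. The collagen I genes Col1a1 (1935 and 1398 against 2989 and 2574 CPM, -0.83 ± 0.15) and Col1a2 (-0.85 ± 0.17) were lower in Pi16 than in Mmp3 cells. Fbln1 (fibulin-1) stood at 324 and 281 against 735 and 675 CPM (-1.30 ± 0.17). Of 30 TGF-beta and BMP pathway genes 1 was higher and 7 were lower, although the median of the list was 0.06. Fst (follistatin, which binds activin and BMPs) stood at 257 and 228 against 610.4 and 624 CPM (-1.44 ± 0.16). Of 16 adipogenic and lipid genes 7 were lower and none higher, with 1 higher at an unadjusted p under 0.05 in edgeR and none by DESeq2 (median -0.88), with Apod at 2594 and 1449 CPM (-2.21 ± 0.18) and Apoe at 1470.4 and 798 (-2.62 ± 0.26) in Mmp3 cells. F3 and Icam1, counted in the adipogenic and lipid list, were again among its lower members (-1.12 and -0.94). Igfbp7 was lower than in both other classes (-1.84 ± 0.14 against Mmp3 cells). Igfbp3, another IGF-binding protein, stood at 316 and 94.8 against 916 and 1228 CPM, with log2 differences of -1.63 in total muscle 1 alone and -3.75 in total muscle 2 alone.

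The summed level of the heat shock genes placed Pi16 cells between the other classes, although not each gene did. All 16 were tested. Against Smoc2 cells 11 were lower (7 by DESeq2) and 1, Cryab, higher (median -0.84), and against Mmp3 cells 7 were higher (4 by DESeq2) and none lower by either, with 1 lower at an unadjusted p under 0.05 (median 0.52). Their summed level was 15788 and 17338 CPM in Pi16 cells, 29608 and 25932 in Smoc2 cells and 11285 and 9894 in Mmp3 cells, without overlap. Hspa1a (the inducible HSP70) stood at 2078 and 2800.1 CPM in Pi16 cells, 6064 and 4938 in Smoc2 cells (-1.28 ± 0.17) and 444 and 738 in Mmp3 cells (1.94 ± 0.19). Cryab (a small heat shock protein) was highest in Pi16 cells, at 521 and 858 CPM. It stood at 324 and 379 in Smoc2 cells and 173 and 169.8 in Mmp3 cells. By the mean of both libraries, Hspb8 and Dnajb4 were also highest in Pi16 cells, and Hspa5 and Hspd1 were lowest there. Hspb1 stood at 701 and 166 CPM in Mmp3 cells, so its call there rested on total muscle 2, with log2 differences of 0.38 in total muscle 1 alone and 2.63 in total muscle 2 alone. Under each scaling tried, the median of the list was below 0 against Smoc2 cells and above 0 against Mmp3 cells. Heat shock and immediate early genes are known to respond to tissue digestion, and whether the classes met it differently was not tested.

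Of 24 immediate early genes, which switch on within minutes of a stimulus, 12 were lower in Pi16 than in Smoc2 cells and 1, Fosl1, higher (median -0.52), whereas DESeq2 called 4 lower and none higher. Fos stood at 996 and 1189 CPM against 2676 and 1924 (-1.15 ± 0.16), Jun at 875 and 1289 against 2642 and 1987 (-1.16 ± 0.19) and Junb at 2763 and 3091 against 4041 and 3675 (-0.48 ± 0.11). These encode subunits of AP-1, the factor for which TGANTCA was the pattern used above. Against Mmp3 cells, with Fos at 673 and 754 and Jun at 1394 and 1094 CPM, 1 was called, Zfp36, lower in Pi16 cells, with log2 differences of -0.30 in total muscle 1 alone and -1.52 in total muscle 2 alone. Mitochondrially encoded genes (9 tested) had no call in either comparison by edgeR or DESeq2, and 0 and 1 at an unadjusted p under 0.05 in edgeR, with median log2 differences of -0.19 and 0.17.

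**Figure D5:**
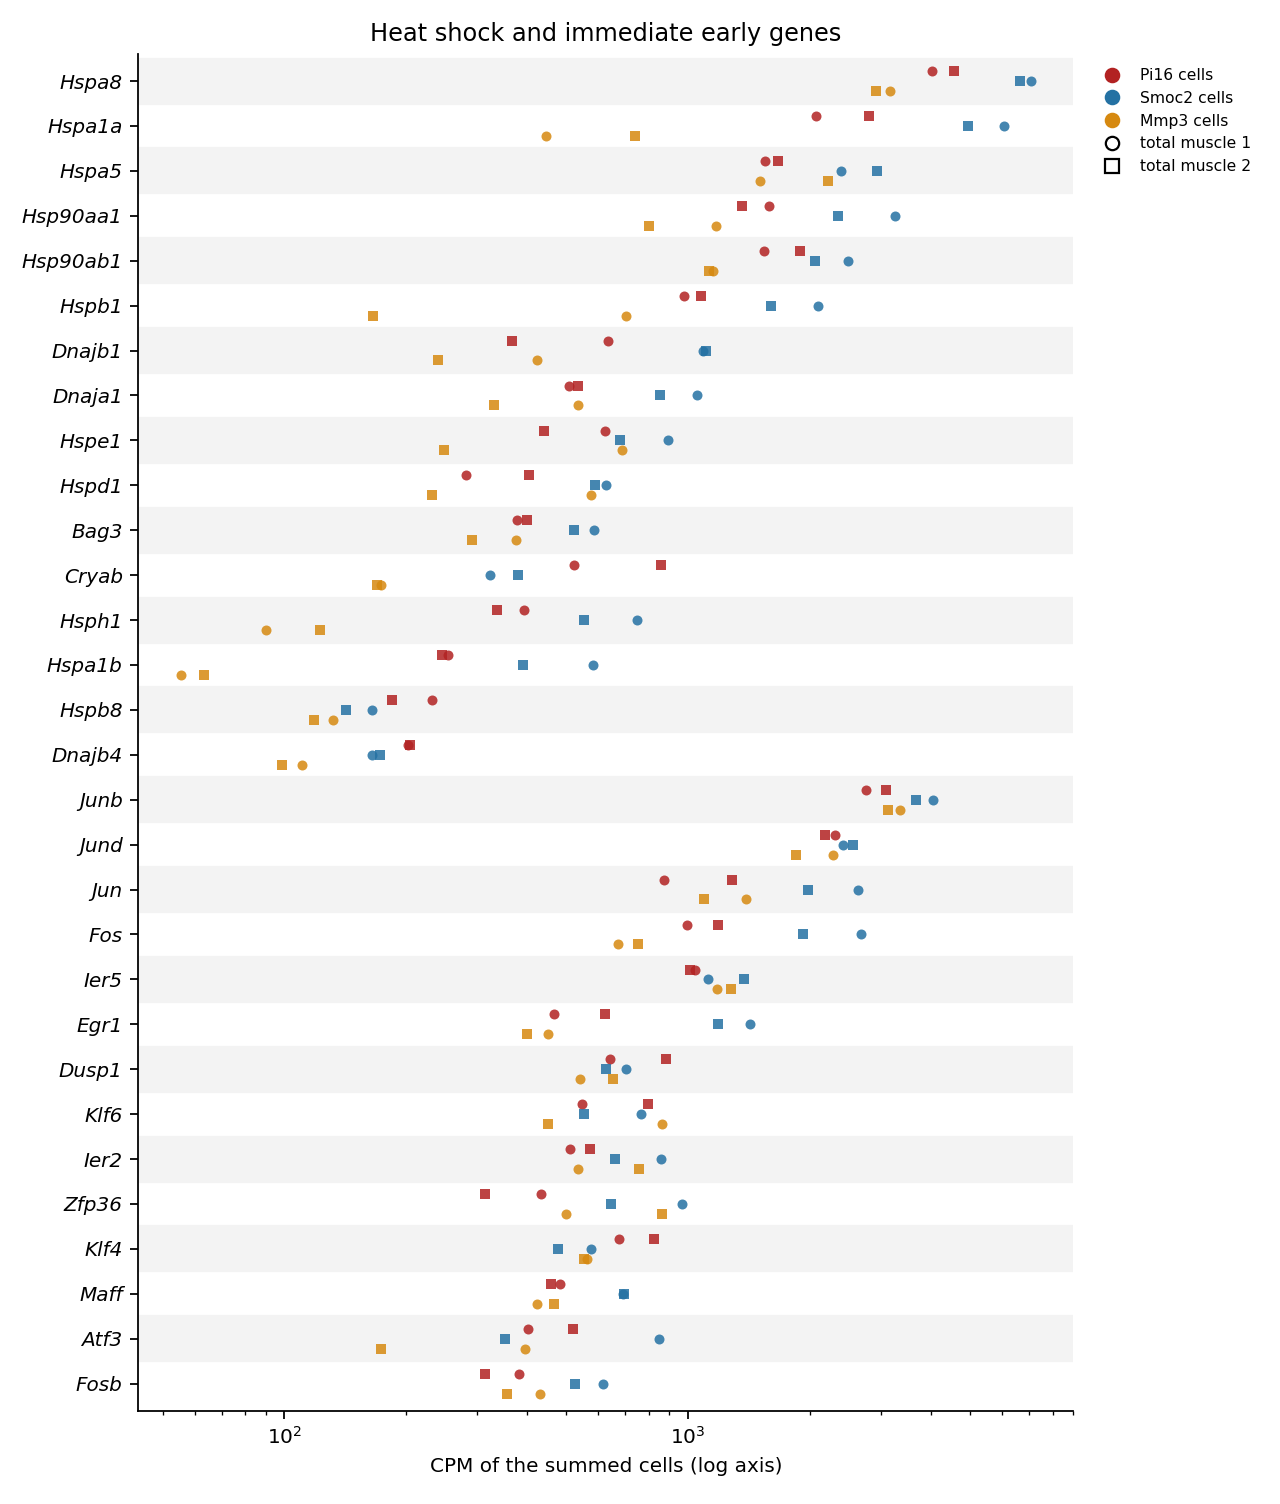
CPM (x, log axis) of 16 heat shock and chaperone genes (upper rows) and the 14 most abundant immediate early genes (lower rows) in Pi16, Smoc2 and Mmp3 cells; circles are total muscle 1, squares total muscle 2. For Hspa1a, Hsph1 and Hspa1b the red Pi16 points lie between the Mmp3 points on the left and the Smoc2 points on the right, whereas Cryab is farthest right in Pi16 cells.

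The Pi16 cells also differed among themselves along the genes of the rule. Cells with 1 or 2 of the 4 genes (27 and 41 cells, median 5256 and 5685 UMIs) and cells with 3 or 4 (34 and 57 cells, median 6996 and 5904 UMIs) were set side by side, as a description without a test, since the split uses the rule's genes and depth. Igfbp5 stood at 624 and 769 CPM in the former and 2952 and 2346 in the latter, and Anxa3 at 321 and 496 against 1294 and 871. Dmkn stood at 12.1 and 25.6 against 163 and 179.7 CPM, and Krtdap at 78.7 and 29.9 against 209 and 245. In the former cells Dmkn had a UMI in only 3.70% and 2.44% and Krtdap in 3.70% and 9.76%, so these values rest on few cells. In the latter the shares were 29.4% and 12.3% for Dmkn and 26.5% and 17.5% for Krtdap. Mgp, low in the class, went the other way, at 406 and 846 against 96 and 40.8 CPM. Has1 stood at 2828 and 2499.5 against 2714 and 3114 CPM and so differed little. Igfbp5, Anxa3, Dmkn and Krtdap, picked from the genes above, were thus at higher levels in the cells with more of the 4 genes in both libraries, and the part of depth in this was not tested.

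Cycling genes were scarce. Of 26 genes of the S, G2 and M phases only Pcna passed the filter on low counts, with log2 differences of 0.05 and 0.02 (edgeR adjusted p = 0.943 and 0.99). A UMI of Mki67 was found in 1 of 61 Pi16 cells of total muscle 1 and in 0 of 98 of total muscle 2, which allows a share of up to 3.06% by the limit of 3 counts (3.69% by the exact binomial 95% interval), and Top2a in 1 and 0. In Smoc2 cells Mki67 had a UMI in 2 of 145 and 0 of 229 cells.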

How the data were processed

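Droplet libraries of single-cell 3' RNA were made from live-sorted cells of total hindlimb muscle (2 libraries), and 5 libraries of muscle stem cells and myoblasts complete the series. The authors deposited raw UMI counts for 27998 genes per cell barcode, with no normalization, and named Cell Ranger 2.2.0, bcl2fastq 2.17.1, Seurat 2.3.4 and the build mm10, per the submitters' processing notes. The deposited matrices carry no cell annotation, so cells were classed by gene sums as described, and the members, gene lists and tests were chosen with earlier results of these data known. Counts of each class were summed per library and tested with edgeR 4.0.16 (R 4.3.3) by its quasi-likelihood test on the 6 sums of the Pi16, Smoc2 and Mmp3 cells, with TMM scaling, filterByExpr and the library as a term, since the classes come from the same libraries; p-values were adjusted by the Benjamini-Hochberg method over 5677 genes outside the rule, at a threshold of 0.05. The 12 fitted genes of the rule are not reported as tested. A standard error is the log2 difference divided by the square root of F. DESeq2 1.42.0, scaling, filter, gate, depth, doublet and replicate settings were tried as alternatives. Tested on counts simulated for 5770 genes of the Smoc2 comparison, 56.4% of changes of log2 size 1 and 92.6% of size 2 were recovered. Named genes are the 12 largest rises and falls among called genes with at least 50 CPM that moved alike in both libraries, and up to 4 called members of each list with at least 30 CPM. Members that spell out a short count and the single endothelial, epithelial and B cell markers were added after their values were seen. So were Cryab, Cd74, Ly6a beside Mmp3 cells, Col1a1, Col1a2 and Col3a1 beside Smoc2 cells, and Fos and Jun beside Mmp3 cells. A gene is said to have a copy where the last 300 bases of its GENCODE M21 transcript align to another gene with blastn 2.17.0 (minimum 95% identity, length 90). Shares of cells were also taken after thinning each cell to 1000 UMIs. Upstream sequences are from RefSeq, where all 11 genes looked up were found. Some genes that met the rule for named genes are not reported here.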

Additional observations from a re-analysis of the deposited data

How the results depend on the processing

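Against Smoc2 cells 557 genes were called. DESeq2 called 196, all among the 557, cells thinned to 1500 UMIs gave 223 (of 2001 genes tested), a gate with the other sums at 0 gave 320, and a fit of the 2 classes alone gave 951. Against Mmp3 cells 260 were called, with DESeq2 135 and with thinned cells 95; the gate with the other sums at 0 left an empty Mmp3 sum and was not fitted. Without the replicate block, that is the library term, 582 and 274 were called, and no count moved by over 1.5 times. Without scaling 56.3% of the calls against Smoc2 cells were higher in Pi16 cells, in place of 44.5%. The other settings kept both counts within 1.5 times. The share of Pi16 cells among gated cells, 25.5%, was 24.9% with an own sum of at least 3, 24.0% in thinned cells, 23.7% without doublet calls and the top 5% of UMIs, 11.8% with Pi16 left out of the sum, 4.75% with the other sums at 0, and 25.1 to 25.9% in single libraries. Leaving out Pi16 or barcodes shared between libraries was added after seeing the data. With 1 library left the calls have no test. No named gene that was called in the main fit reversed under any setting. The largest rises and falls had been chosen to move alike in both libraries. Named genes without a call could change direction. Col1a1 stood at 1935 CPM in Pi16 cells against 1547 in Smoc2 cells in total muscle 1, and at 1398 against 1764 in total muscle 2. DESeq2 no longer called 61 of 191 values for named genes, and thinning 55 of 174. The Mmp3 sums were the shallowest of the 3 classes, with 144178 and 253277 UMIs.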

Other observations

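Further gene groups were compared with Smoc2 cells. For reference, 4.37% of all tested genes were called higher in Pi16 cells and 5.44% lower. Of the annexin, S100 and galectin genes, 6 of 19 tested members were higher in Pi16 cells and 1 lower (median log2 difference 0.41). Anxa1 (an annexin that limits inflammation) stood at 1458 and 1568 against 898 and 822 CPM (0.73 ± 0.14). Of the retinoid and steroid metabolism genes, 5 of 20 tested members were higher in Pi16 cells and 3 lower (median log2 difference -0.07), with Ptgis (prostacyclin synthase) at 109 and 86.5 against 14.6 and 31.3 CPM and log2 differences of 2.74 in total muscle 1 alone and 1.35 in total muscle 2 alone. Of 17 tested metallothionein and oxidative stress genes 1 was higher and 4 were lower (median log2 difference -0.13), with Sod3 (extracellular superoxide dismutase) at 297 and 273 against 194 and 169 CPM (0.57 ± 0.15) and Hmox1 (heme oxygenase) at 1189 and 1132 against 1933 and 2001 (-0.85 ± 0.13). Of the cytoskeleton and motility genes, 4 of 26 tested members were higher in Pi16 cells and 3 lower (median log2 difference -0.16), with Tmsb4x (thymosin beta 4, which binds actin) at 2990.0 and 3216 against 2127 and 2323 CPM (0.39 ± 0.11).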
